A study of Homo sapiens with 24 samples.

Results

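The genes described here are the nuclear genes for subunits of the 5 complexes of the mitochondrial respiratory chain and ATP synthase. They were chosen by symbol (NDUFA, NDUFB, NDUFC, NDUFS, NDUFV, SDHA to SDHD, UQCR, COX and ATP5 series) and by a mean normalised count of at least 50 over all libraries. Of 57820 rows in the table, 78 matched by symbol and 75 passed the mean. The lowest members by mean level were ATP5S at 128 and NDUFC1 at 357, and the 3 rows left out were a second SDHD row at 0.166 and ATP5L2 and ATP5J2LP at 0. By background knowledge, 36 members belong to complex I, 4 to complex II, 8 to complex III, 11 to complex IV (with NDUFA4 counted there) and 16 to complex V. All 75 members were high enough to be tested.

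RNA was measured in RBE and SNU1079, human cell lines from cancers of the bile duct. Both are labelled IDH1 mutant with high SULT1A1, a cytosolic sulfotransferase, and these features are shared by every group. Cells were treated with YC-1, a small molecule known as a stimulator of soluble guanylate cyclase, or with its vehicle DMSO. Each line was sampled after 6 h and after 16 h of either treatment, which gives 8 groups of 3 libraries, and no dose is given. Each line is a single tumour's cells in culture. The design text calls the replicates biological but does not say how cultures were started, so p-values measure only the spread between these libraries, which may be technical. Times follow the titles and the design text. Another label of the samples goes against them, with 16 h for every DMSO library and 6 h for every YC-1 library. Under that label, time and treatment could not be told apart. With the times pooled, which does not settle this, 35 genes described here were higher and 1 lower in RBE, and 16 and 7 in SNU1079.

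Electrons enter the chain at complex I (NADH dehydrogenase) or complex II (succinate dehydrogenase) and pass through ubiquinone, complex III and cytochrome c to oxygen at complex IV. Complexes I, III and IV pump protons, and complex V (ATP synthase) uses the return flow through its rotating ring of c subunits to make ATP. A few core subunits of complexes I, III, IV and V are made inside the mitochondrion, all the others are imported, and NRF1, ETS-family factors and the PGC-1 coactivators are textbook regulators of the nuclear genes.

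The summed normalised counts ran from 19010000 to 21580000 in DMSO libraries and from 20430000 to 27010000 in YC-1 libraries, and the depth in reads is unknown. Of the bile duct markers, KRT7, KRT19, EPCAM and SOX9 were present (means of 36127, 14139, 1465 and 1337), while CFTR was near 0 (1.05). The defining markers ALB of hepatocytes and PTPRC and CD3E of leukocytes were near 0 (1.14, 1.30 and 0.0792). Through SERPINA1 and CD68, the sums of the hepatocyte and leukocyte lists were 1139 to 2182 and 1098 to 4151, with the YC-1 libraries of RBE at 16 h above their DMSO libraries in both. The stromal and endothelial list, of which 4 of 5 were found, summed to 47.3 to 126 in RBE libraries and 718 to 3852 in SNU1079 libraries, mainly through COL1A1, and within SNU1079 was lowest in the YC-1 libraries at 16 h (718 to 1735). The part of these markers in the results was not tested. In SNU1079, 3 libraries had the lowest mean correlation with the others of their groups at 16 h with DMSO (replicate 1, 0.966), at 16 h with YC-1 (replicate 2, 0.956) and at 6 h with YC-1 (replicate 1, 0.955). They are called the libraries that stood apart, although YC-1 16 h replicate 3 was close to replicate 2 at 0.958. In the RBE groups no pair of libraries was under 0.984. Results that rest on the 3 libraries are also given without them.

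After 16 h of YC-1, most respiratory chain genes were higher in RBE, fewer were higher in SNU1079, and in SNU1079 a small set that included the 3 c-ring genes of ATP synthase was lower. Of the 75 members, 62 rose and 0 fell in RBE at 16 h (limma, adjusted p under 0.05 over 17860 genes), where 27.3% of all genes tested rose and 26.6% fell. The unadjusted p was under 0.05 for 63 higher and 1 lower member, and the other fits gave 0 to 22 lower members. In SNU1079 at 16 h, 35 members rose and 8 fell, against 28.7% and 25.8% of all genes. With the 12 libraries of SNU1079 fitted alone, 24 rose and 7 fell, and the share of all genes in that fit is not given here. The median log2 fold change of the members was 0.79 in RBE and 0.32 in SNU1079, and that of all genes was 0.02 and 0.06. All 3 YC-1 libraries lay above all 3 DMSO libraries for 68 members in RBE at 16 h, and below for 2, where 35.6% and 33.5% of all genes did so. For SNU1079 the counts were 25 and 8, against 26.8% and 24.5%. All 35 members that rose in SNU1079 (100%) were among the 62 that rose in RBE, of which they made up 56.5%. As 62 of the 75 members rose in RBE, most of any 35 members would be shared. The overlap over all genes was not counted. NDUFA4 and NDUFA13 were among the 35 shared members, whereas ATP5G2 and COX5A rose in RBE and fell in SNU1079. In these bulk libraries, fewer cells and less RNA per cell cannot be told apart.

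**Figure D1:**
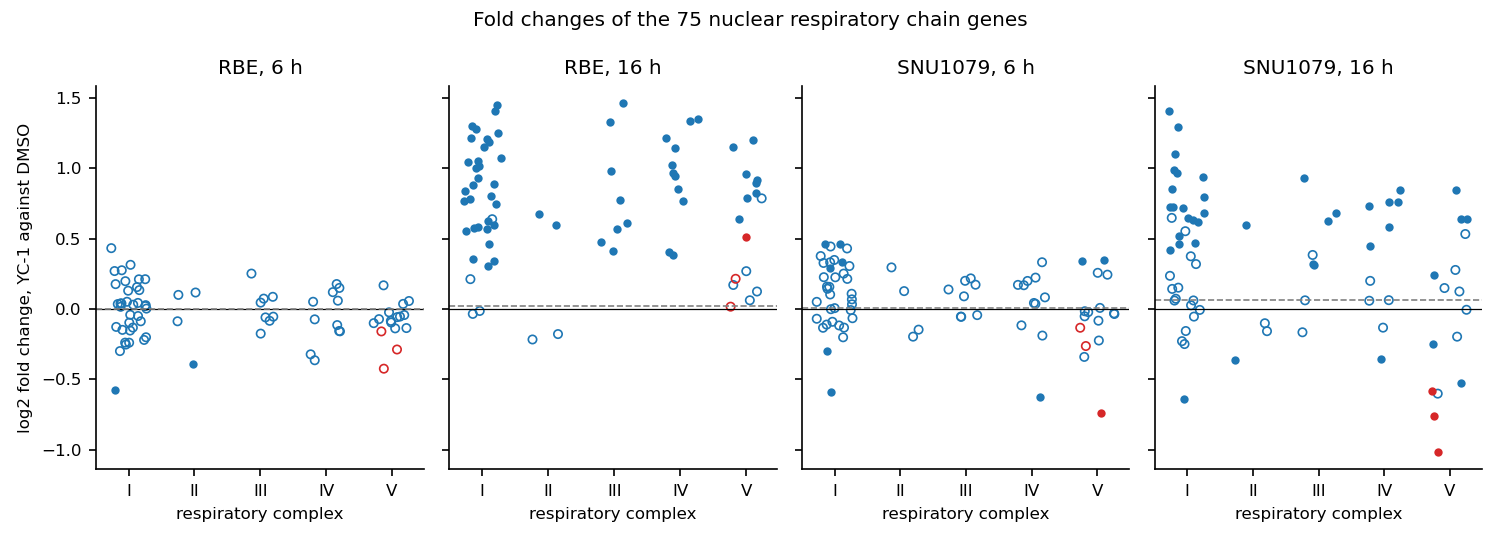
Log2 fold change of each of the 75 members with YC-1 against DMSO (vertical axis) by complex (horizontal axis), in each line at each time. Filled points passed the test (limma adjusted p under 0.05), open points did not, red points are ATP5G1, ATP5G2 and ATP5G3, and the dashed line is the median of all genes. In RBE at 16 h, 62 points are filled and above 0 as deposited (11 under scaling to ribosomal protein genes), and in SNU1079 at 16 h the 3 red points are at -1.01, -0.76 and -0.59.

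These counts depended on how libraries were scaled. As deposited, the median of all genes was near 0. Scaling to equal sums, to equal sums without mitochondrial transcripts, or to ribosomal protein genes moved that median in RBE at 16 h to -0.27, -0.15 and -0.75, and in SNU1079 to -0.25, -0.14 and -0.36. Higher and lower members in RBE at 16 h then numbered 41 and 5, 50 and 2, and 11 and 22. For SNU1079 at 16 h they were 9 and 22, 22 and 16, and 8 and 30, so that the excess of higher members turned to an excess of lower ones under 2 of the 3 scalings. The calls of all genes moved with the scaling too. Under the same scalings in order, 16.3%, 20.9% and 6.55% of all genes were higher and 36.3%, 32.0% and 53.3% lower in RBE at 16 h, and in SNU1079 17.2%, 21.2% and 13.9% were higher and 36.9%, 33.1% and 38.7% lower. Relative to the median of all genes, the members' median was 0.71 to 0.76 higher in RBE under the 4 scalings. In SNU1079 it was 0.20 to 0.26 higher. A scaling shifts nearly all genes of a library by the same amount, so this difference could hardly change and is no check. The ribosomal protein genes themselves held 7.79% to 7.93% of the signal in the YC-1 libraries of RBE at 16 h and 5.0% to 5.57% in the DMSO libraries.

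**Figure D2:**
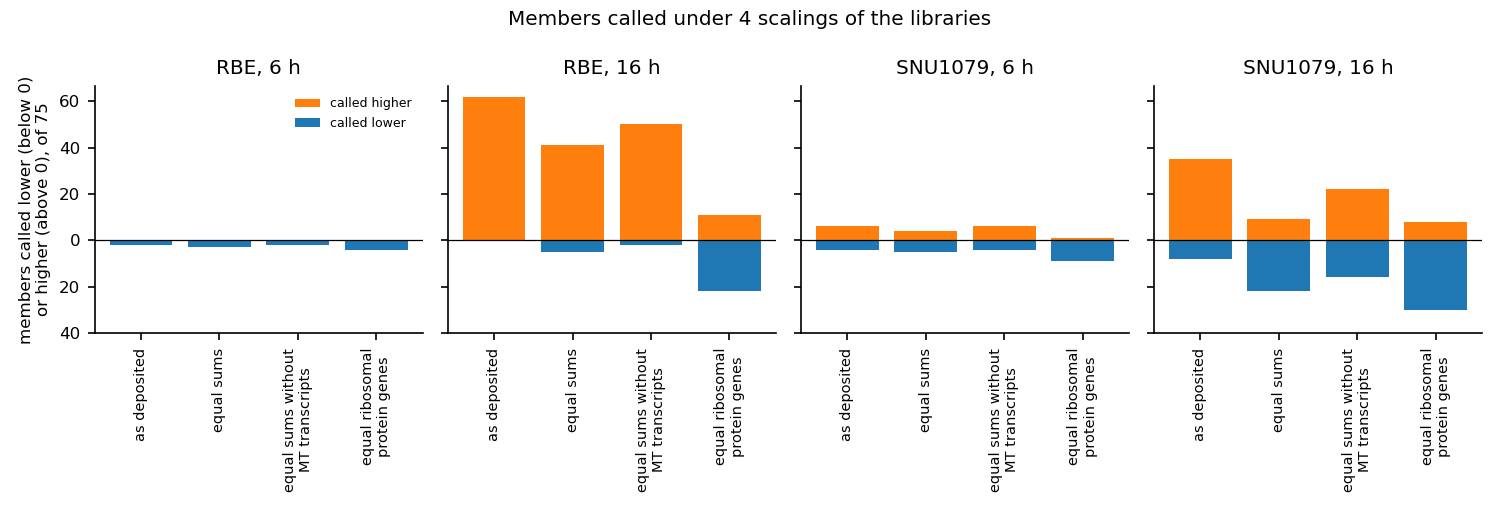
Number of members called higher (bars above 0) or lower (bars below 0) of 75, with the libraries as deposited and under 3 other scalings, in each line at each time. In RBE at 16 h the higher bar falls from 62 as deposited to 11 under scaling to ribosomal protein genes, where 22 were lower, and in SNU1079 at 16 h the lower bar goes from 8 to 30.

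Some members were called the same way under all 4 scalings. For RBE at 16 h these were 11 higher members, among them NDUFA13, NDUFA7, UQCRQ, COX8A, NDUFA4 and ATP5E. For SNU1079 at 16 h, 7 were higher (NDUFA11, NDUFA13, NDUFB10, NDUFB9, NDUFV1, COX6A1 and ATP5E). All 8 members that fell there did so under all 4 scalings, and they were NDUFV2, SDHC, COX5A, ATP5A1, ATP5C1, ATP5G1, ATP5G2 and ATP5G3.

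The promoters of 4 members at the ends of this range are shown because these genes share a process but not a response. They were picked after their values were seen. UQCRQ and NDUFA13 had the highest fold changes in RBE at 16 h, SDHA the lowest there, and ATP5G1 the lowest in SNU1079. Each stretch covers 250 bases before and 50 bases after the start of the gene in RefSeq on GRCh38.p14, on the gene's strand, and capitals mark matches to CCGGAAG (the ETS motif), GCGCA and GCGC with 1 base between (the NRF1 motif) or TGACGTCA (the cyclic AMP response element). Their positions are chr5:132866392-132866691, chr19:19515975-19516274, chr5:218070-218369 and chr17:48892537-48892836, all on the plus strand.
UQCRQ: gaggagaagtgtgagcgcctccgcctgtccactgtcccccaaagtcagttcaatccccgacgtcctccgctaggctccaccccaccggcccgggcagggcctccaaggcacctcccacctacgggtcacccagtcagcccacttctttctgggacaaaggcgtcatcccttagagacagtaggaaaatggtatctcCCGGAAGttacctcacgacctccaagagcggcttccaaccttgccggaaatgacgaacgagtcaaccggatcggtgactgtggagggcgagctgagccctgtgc
NDUFA13: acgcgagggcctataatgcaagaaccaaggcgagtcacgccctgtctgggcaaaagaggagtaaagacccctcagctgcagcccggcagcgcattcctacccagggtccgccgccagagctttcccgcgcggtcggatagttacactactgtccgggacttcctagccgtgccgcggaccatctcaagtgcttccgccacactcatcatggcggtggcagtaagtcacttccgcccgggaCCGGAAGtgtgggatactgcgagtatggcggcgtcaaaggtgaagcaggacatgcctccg
SDHA: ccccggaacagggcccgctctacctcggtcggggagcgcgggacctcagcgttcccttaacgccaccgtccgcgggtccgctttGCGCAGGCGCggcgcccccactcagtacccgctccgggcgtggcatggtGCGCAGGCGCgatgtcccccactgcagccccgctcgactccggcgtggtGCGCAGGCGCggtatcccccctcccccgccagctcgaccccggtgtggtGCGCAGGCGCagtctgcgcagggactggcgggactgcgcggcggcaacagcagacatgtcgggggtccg
ATP5G1: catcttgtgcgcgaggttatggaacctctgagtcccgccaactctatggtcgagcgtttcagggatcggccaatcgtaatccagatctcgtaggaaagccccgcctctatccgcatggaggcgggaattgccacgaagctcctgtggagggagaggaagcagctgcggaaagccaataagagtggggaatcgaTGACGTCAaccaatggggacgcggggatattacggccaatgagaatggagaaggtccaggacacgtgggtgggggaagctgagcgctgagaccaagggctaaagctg
The promoters of UQCRQ and NDUFA13 each held 1 ETS match, that of SDHA held 4 NRF1 matches, and that of ATP5G1 held 1 cyclic AMP response element.

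Complex I oxidises NADH. Of its 36 members, 32 rose in RBE at 16 h, and in SNU1079 19 rose and 1 fell. These counts, and those of the complexes below, stand against 27.3% of all genes higher and 26.6% lower in RBE at 16 h. The shares in SNU1079 were 28.7% and 25.8%. NDUFA13, an accessory subunit (ENSG00000186010, chromosome 19, 19515736 to 19529054 in GENCODE 29 on GRCh38), stood in RBE at 16 h at 868, 952 and 913 with DMSO and at 2387, 2616 and 2459 with YC-1. The SNU1079 libraries stood at 1845, 1528 and 1284 with DMSO and at 3466, 3959 and 2626 with YC-1. The groups did not overlap in either line, and the log2 fold changes were 1.45 ± 0.17 in RBE (± SE, limma adjusted p = 3.56e-07) and 1.10 ± 0.17 in SNU1079 (adjusted p = 1.24e-05). NDUFS7, a core subunit with an iron-sulfur cluster, had the highest fold change of all members in SNU1079 at 16 h (1.41 ± 0.43, adjusted p = 0.00915). Its libraries there stood at 786, 481 and 244 with DMSO and at 1021, 1869 and 906 with YC-1, so they did not overlap but spread widely. This call was lost without DMSO 16 h replicate 3 (0.96) or YC-1 16 h replicate 2 (1.09) and under 2 scalings (1.04 and 0.93). The NDUFS7 call in RBE at 16 h (1.15, adjusted p = 0.03) was lost under all 3 other scalings (0.32 to 0.96) and without DMSO replicate 1 (0.95), DMSO replicate 3 (1.06) or YC-1 replicate 3 (0.81).

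NDUFB7, another accessory subunit, had the next highest fold change in SNU1079 at 16 h, at 1.29 ± 0.41 (limma adjusted p = 0.0112). The value was 0.81 without DMSO 16 h replicate 3 and 0.87 without YC-1 16 h replicate 2, and was 0.93 under equal sums and 0.82 under ribosomal protein scaling, and none of these passed the test. NDUFV2, a core subunit of the NADH-oxidising arm, was the only complex I member that fell in SNU1079 at 16 h. It stood at 1349, 1658 and 1463 with DMSO and at 1238, 719 and 976 with YC-1, with no overlap, and the log2 fold change was -0.64 ± 0.16 (adjusted p = 0.00187). The RBE libraries of NDUFV2 at 16 h stood at 1812, 1739 and 1664 with DMSO and at 1683, 1679 and 1728 with YC-1. The groups overlapped there, and it did not pass the test (-0.03), but was called lower under equal sums (-0.36) and ribosomal protein scaling (-0.87).

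Complex II, the only complex with no mitochondrially encoded subunit, had 2 members that rose in RBE at 16 h and 2 that did not. SDHA carries the flavin and SDHB the iron-sulfur clusters, and SDHC and SDHD anchor them in the membrane. SDHB stood in RBE at 16 h at 1177, 1119 and 1153 with DMSO and at 1824, 1928 and 1757 with YC-1, and SDHD at 1263, 1233 and 1150 with DMSO and at 1914, 1980 and 1649 with YC-1. Both rose without overlap (0.67 ± 0.12 and 0.60 ± 0.12, log2 fold change ± SE, limma adjusted p = 5.76e-05 and 0.000161), but neither passed when scaled to ribosomal protein genes (-0.16 and -0.23, adjusted p = 0.488 and 0.151), where the median of all genes was -0.75. SDHD did not pass under equal sums either (0.27). SDHA stood at 3648, 4087 and 4122 with DMSO and at 3370, 3285 and 3542 with YC-1, and SDHC at 2335, 2178 and 2142 with DMSO and at 1946, 2116 and 1826 with YC-1. Their YC-1 libraries were all below their DMSO libraries, but neither passed the test as deposited (-0.22 and -0.18, adjusted p = 0.0648 and 0.166). Under the other 3 scalings both were called lower, SDHA at -0.41 to -1.05 and SDHC at -0.37 to -1.01. SDHB rose in SNU1079 at 16 h (0.60 ± 0.12, adjusted p = 0.000218) and SDHC fell (-0.36 ± 0.11, adjusted p = 0.00637). SDHB did not pass there under equal sums (0.23) or ribosomal protein scaling (0.12), and SDHC did not without the 3 libraries that stood apart (-0.23). SDHA and SDHD did not pass in SNU1079 (-0.16 and -0.10), but under the other 3 scalings both were called lower there, at -0.40 to -0.63 and -0.34 to -0.58. SDHD was also called lower without the libraries that stood apart (-0.27).

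All 8 members of complex III rose in RBE at 16 h as deposited, and 5 rose in SNU1079. UQCRQ, a small subunit of complex III (ENSG00000164405, chromosome 5, 132866560 to 132868031), had the highest fold change of all members in RBE. It stood there at 1522, 1503 and 1193 with DMSO and at 3873, 4046 and 3634 with YC-1. The YC-1 libraries lay well above the DMSO libraries (1.46 ± 0.20, limma adjusted p = 2.7e-06). Its SNU1079 libraries stood at 1925, 1981 and 1871 with DMSO and at 3072, 3315 and 1558 with YC-1. YC-1 replicate 3 was below every DMSO library there, and UQCRQ did not pass the test (0.38 ± 0.20, adjusted p = 0.108), but did without that library (0.73). The core proteins UQCRC1 and UQCRC2 rose by 0.78 and 0.42 in RBE and by 0.63 and 0.32 in SNU1079 on the log2 scale. UQCRC2 in RBE did not pass under equal sums (0.09) and was called lower under ribosomal protein scaling (-0.42), and in SNU1079 it did not pass under any of the other 3 scalings (-0.042, 0.08 and -0.15). UQCRC1 did not pass under ribosomal protein scaling in RBE (-0.059) or SNU1079 (0.15), nor under equal sums in SNU1079 (0.27). The Rieske iron-sulfur protein UQCRFS1 rose in RBE (0.57; called lower at -0.27 under ribosomal protein scaling) and did not pass in SNU1079 (0.06, adjusted p = 0.633), where equal sums (-0.30) and ribosomal protein scaling (-0.41) made it lower.

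Complex IV passes electrons to oxygen. All 11 of its members rose in RBE at 16 h as deposited, and in SNU1079 6 rose and 1 fell. COX8A, the ubiquitous form of a small subunit, stood in RBE at 1903, 2327 and 1665 with DMSO and at 4765, 4576 and 5622 with YC-1, with no overlap (1.35 ± 0.23, limma adjusted p = 3.52e-05). In SNU1079 it stood at 1860, 1600 and 1298 with DMSO and at 3107, 2596 and 1608 with YC-1. The groups overlapped through YC-1 replicate 3, and the call (0.58 ± 0.23, adjusted p = 0.0346) was lost under all 3 other scalings (0.11 to 0.34). It was also lost without DMSO replicate 2 (0.60), DMSO replicate 3 (0.45), YC-1 replicate 1 (0.38) or YC-1 replicate 2 (0.51). NDUFA4, once assigned to complex I, rose in both lines (1.34 ± 0.16 in RBE and 0.76 ± 0.16 in SNU1079, adjusted p = 4.42e-07 and 0.000401), though in SNU1079 not under equal sums (0.40) or ribosomal protein scaling (0.28). COX4I1, the ubiquitous form of the regulatory subunit 4, rose by 0.94 and 0.76 on the log2 scale (0.11 under ribosomal protein scaling in RBE and 0.40 under equal sums in SNU1079, neither called), and its alternative form COX4I2 was listed at 0 in every library.

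COX5A, the partner of subunit 4, went in opposite directions. It stood in RBE at 16 h at 2195, 2271 and 2020 with DMSO and at 4119, 3795 and 3780 with YC-1. The SNU1079 libraries stood at 1178, 1320 and 1245 with DMSO and at 1335, 700 and 990 with YC-1. The RBE groups did not overlap (0.85 ± 0.15, limma adjusted p = 5.37e-05), although the RBE value was 0.02 under ribosomal protein scaling. In SNU1079 they overlapped through YC-1 replicate 1, and the lower call (-0.36 ± 0.15, adjusted p = 0.0474) was lost without any of 5 single libraries (-0.12 without YC-1 replicate 2, -0.31 without DMSO replicate 2, and -0.36 to -0.40 without DMSO replicate 1, DMSO replicate 3 or YC-1 replicate 3). It was also lost without the 3 libraries that stood apart (-0.16).

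Complex V had 9 of 16 members that rose in RBE at 16 h, where 27.3% of all genes did. Its SNU1079 counts, 4 higher and 5 lower, were near the shares of all genes (28.7% and 25.8%). In its catalytic F1 head, the catalytic beta subunit ATP5B stood in RBE at 16 h at 27267, 26321 and 27924 with DMSO and at 48360, 49285 and 46400 with YC-1. The SNU1079 libraries stood at 12003, 12722 and 12976 with DMSO and at 20397, 18878 and 19571 with YC-1. ATP5B rose in both lines without overlap (0.82 ± 0.07 and 0.64 ± 0.07, limma adjusted p = 1.35e-09 and 5.22e-08), but neither call passed under ribosomal protein scaling (-0.014 and 0.17). ATP5E, the small epsilon subunit of the head's stalk, stood in RBE at 2797, 2685 and 2419 with DMSO and at 6378, 6016 and 5787 with YC-1, and in SNU1079 at 3461, 3386 and 3027 with DMSO and at 5676, 6711 and 5377 with YC-1. ATP5E rose in both lines without overlap (1.20 ± 0.10 and 0.84 ± 0.10) under all 4 scalings. The alpha and gamma subunits of the head, ATP5A1 and ATP5C1, did not pass in RBE (0.12 and 0.06; lower at -0.71 and -0.77 under ribosomal protein scaling) and fell in SNU1079 (-0.25 ± 0.08 and -0.53 ± 0.13, adjusted p = 0.00821 and 0.00221).

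The 3 c-ring genes ATP5G1, ATP5G2 and ATP5G3 encode the same mature c subunit behind different import sequences, and they lie on chromosomes 17, 12 and 2. ATP5G1 stood in SNU1079 at 16 h at 2266, 1848 and 1784 with DMSO and at 1459, 947 and 657 with YC-1, and ATP5G3 at 3877, 3482 and 3467 with DMSO and at 2743, 1744 and 2014 with YC-1. ATP5G2 stood there at 3065, 2620 and 2518 with DMSO and at 2348, 1575 and 1618 with YC-1. In each gene the YC-1 libraries all lay below the DMSO libraries, with replicate 1 nearest to them. The log2 fold changes were -1.01 ± 0.18, -0.59 ± 0.14 and -0.76 ± 0.12 for ATP5G1, ATP5G2 and ATP5G3 (limma adjusted p = 7.1e-05, 0.00115 and 1.22e-05). These calls were kept in each alternative that was run for SNU1079 at 16 h, of which the 3 scalings favoured lower calls.

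ATP5G1 stood in RBE at 16 h at 1656, 1682 and 1706 with DMSO and at 1707, 1777 and 1622 with YC-1, which overlapped (0.02). ATP5G2 stood at 3578, 3732 and 3260 with DMSO and at 5050, 5111 and 4853 with YC-1, and ATP5G3 at 3697, 4038 and 3564 with DMSO and at 4367, 4435 and 4293 with YC-1, both without overlap. ATP5G2 rose (0.51 ± 0.14, limma adjusted p = 0.00374), though not under either form of equal sums (0.18 and 0.32), and was called lower under ribosomal protein scaling (-0.33), and ATP5G3 did not pass (0.21 ± 0.12, adjusted p = 0.127). Under ribosomal protein scaling ATP5G1 (-0.82) and ATP5G3 (-0.62) were called lower in RBE. The coding parts of these genes for the mature subunit are alike, and how reads that fit several genes were counted is not given in the sources used here, so reads may be split between them.

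**Figure D3:**
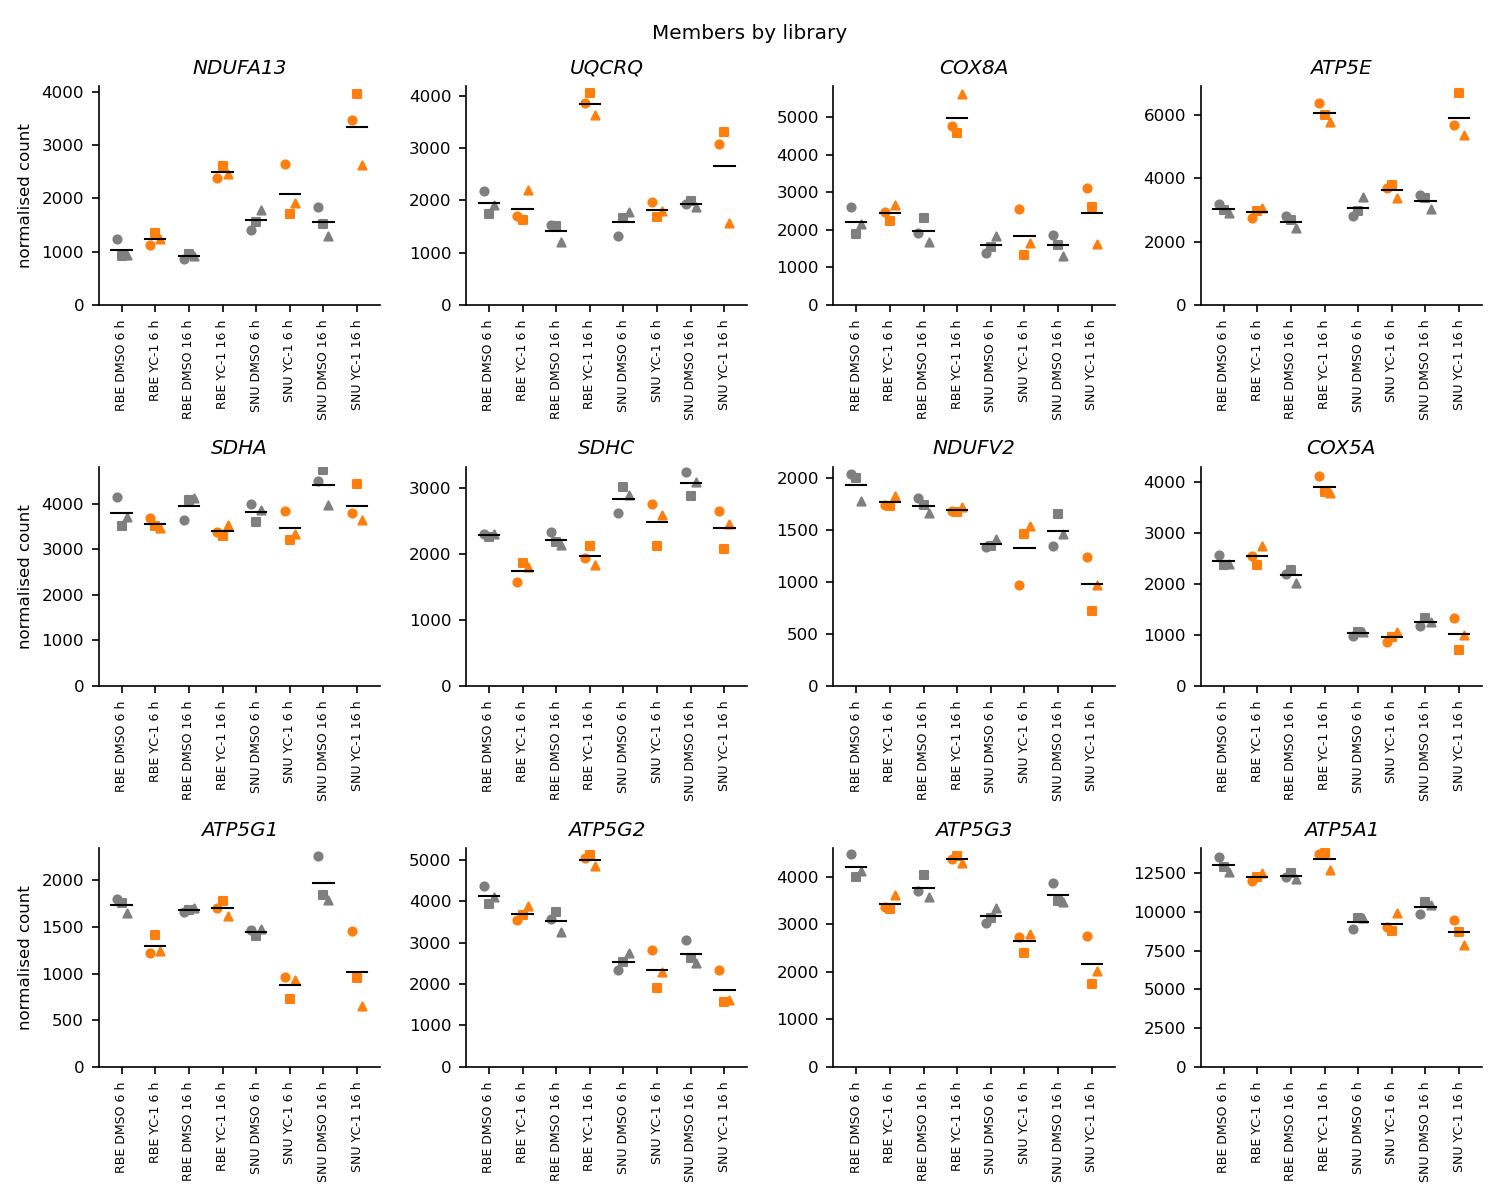
Normalised count (vertical axis) of 12 members in each of the 24 libraries, by group (horizontal axis, SNU for SNU1079). Circles, squares and triangles are replicates 1, 2 and 3, grey is DMSO, orange is YC-1 and the short line is the group mean. ATP5G1 in SNU1079 with YC-1 at 16 h lies at 657 to 1459, below the DMSO libraries at 1784 to 2266, whereas in RBE at 16 h the groups overlap.

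At 6 h the members moved little. In RBE, 0 members rose and 2 fell by limma, where 11.6% and 12.4% of all genes did. The unadjusted p was under 0.05 for 4 higher and 8 lower members, and other fits gave 0 to 10 higher (35 with the times pooled) and 0 to 11 lower members. NDUFB3, an accessory subunit of complex I, fell by 0.57 (adjusted p = 0.0175), but did not pass without DMSO replicate 1 (-0.52), YC-1 replicate 1 (-0.55) or YC-1 replicate 2 (-0.50). SDHC stood at 2297, 2263 and 2299 with DMSO and at 1582, 1864 and 1800 with YC-1. The SDHC groups did not overlap, SDHC fell by 0.39 (adjusted p = 0.00934), and the call was lost without YC-1 replicate 1 (-0.32). In SNU1079, 6 members rose and 4 fell, where 14.0% and 14.2% of all genes did. Those that rose were NDUFA6, NDUFA8, NDUFB9, NDUFB10, ATP5B and ATP5H, at 0.29 to 0.46 on the log2 scale, of which scaling to ribosomal protein genes left NDUFB9. The count of 6 was 3 without DMSO 6 h replicate 1, and it was 11 when the 3 libraries named above were left out. NDUFB3, NDUFV3, COX7B and ATP5G1 fell under all 4 scalings, although the other 3 scalings favoured lower calls here too. ATP5G1 stood at 1471, 1403 and 1475 with DMSO and at 965, 729 and 934 with YC-1 at 6 h, without overlap (-0.74 ± 0.18, adjusted p = 0.00374). NDUFB3 in SNU1079 (-0.59) did not pass without YC-1 6 h replicate 1 (-0.30).

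The difference between the 16 h and 6 h effects was tested in each line, on the libraries already used above. In RBE it passed for 54 members, all higher at 16 h, against 8.80% of all genes higher and 9.43% lower, although 19, 30 and 11 passed under the other scalings and 8 of those 11 were lower. The largest were UQCRQ (1.54 ± 0.28, limma adjusted p = 0.000723), NDUFA4 (1.50 ± 0.22, adjusted p = 0.000142) and UQCR11 (1.38 ± 0.41, adjusted p = 0.0214), and UQCR11 did not pass without DMSO 16 h replicate 3 (1.20), DMSO 6 h replicate 1 (1.29) or YC-1 6 h replicate 2 (1.31). In SNU1079 it passed for 8 members, 7 higher and 1 lower, against 8.47% and 8.53% of all genes, so the higher count was near the share of all genes. With equal sums, with mitochondrial transcripts left out and with ribosomal protein scaling, 8, 5 and 6 passed, all lower. NDUFA13 (0.73), NDUFB10 (0.61) and ATP5E (0.60) had the highest values and did not pass under those scalings, and the lower one was ATP5G3 (-0.50). ATP5G3 did not pass without any single DMSO library of SNU1079, YC-1 16 h replicate 2 or 3 or YC-1 6 h replicate 3 (-0.35 to -0.54). NDUFA13 did not pass without replicate 2 or 3 of either DMSO group, YC-1 16 h replicate 1 or 2 or YC-1 6 h replicate 2 or 3 (0.59 to 0.74).

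The count of 8 in SNU1079 rested on single libraries. Leaving out YC-1 16 h replicate 3 gave 21, and leaving out YC-1 6 h replicate 1 gave 19. It was 4 without DMSO 16 h replicate 3, DMSO 6 h replicate 3 or YC-1 6 h replicate 3, and 5 without DMSO 6 h replicate 1 or 2. Without the 3 libraries that stood apart it was 22.

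The YC-1 effects of the lines were compared directly. At 6 h the difference passed for 0 members by limma, against 0.767% of all genes higher and 0.773% lower, with 5 higher and 0 lower at an unadjusted p under 0.05, and with 0 to 4 in the other fits. At 16 h it passed for 21 members, all with a lower fold change in SNU1079 than in RBE, against 6.43% of all genes lower and 8.17% higher. Under the other scalings 20, 24 and 7 passed, and 2 of the last 7 were higher. The lowest were COX5A (-1.21 ± 0.21, limma adjusted p = 0.000583), ATP5G2 (-1.09 ± 0.19, adjusted p = 0.000756) and UQCRQ (-1.08 ± 0.28, adjusted p = 0.0127). ATP5G1 and ATP5G3 also passed (-1.03 ± 0.25 and -0.97 ± 0.16, adjusted p = 0.00898 and 0.000459). These 5 passed in each alternative that was run for this difference. The count of 21 was 34 without SNU1079 YC-1 16 h replicate 1, 8 without RBE DMSO 16 h replicate 3 and 10 without SNU1079 DMSO 16 h replicate 2. It was 12 and 11 without RBE YC-1 16 h replicates 1 and 2.

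The YC-1 libraries of SNU1079 at 16 h differed among themselves. The median log2 difference of the members from the DMSO mean was 0.78, 0.81 and 0.70 in the 3 YC-1 libraries of RBE at 16 h, but 0.53, 0.43 and 0.03 in those of SNU1079. The c-ring genes had medians of -0.39, -1.04 and -0.84 in the same SNU1079 libraries. Messenger RNA made in the mitochondrion summed to 13.1, 1.07 and 21.8 times the sum of the members in SNU1079 replicates 1, 2 and 3, and to 10.1 to 11.4 times in the YC-1 libraries of RBE at 16 h. In the DMSO libraries at 16 h it was 4.78 to 7.38 times in SNU1079 and 6.95 to 7.60 times in RBE. Replicate 3 of SNU1079 with YC-1 thus had the lowest members and the highest ratio, and the part of this in the results was not tested. Without the 3 libraries that stood apart, 33 members rose and 8 fell in SNU1079 at 16 h, and 11 and 6 at 6 h.

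**Figure D4:**
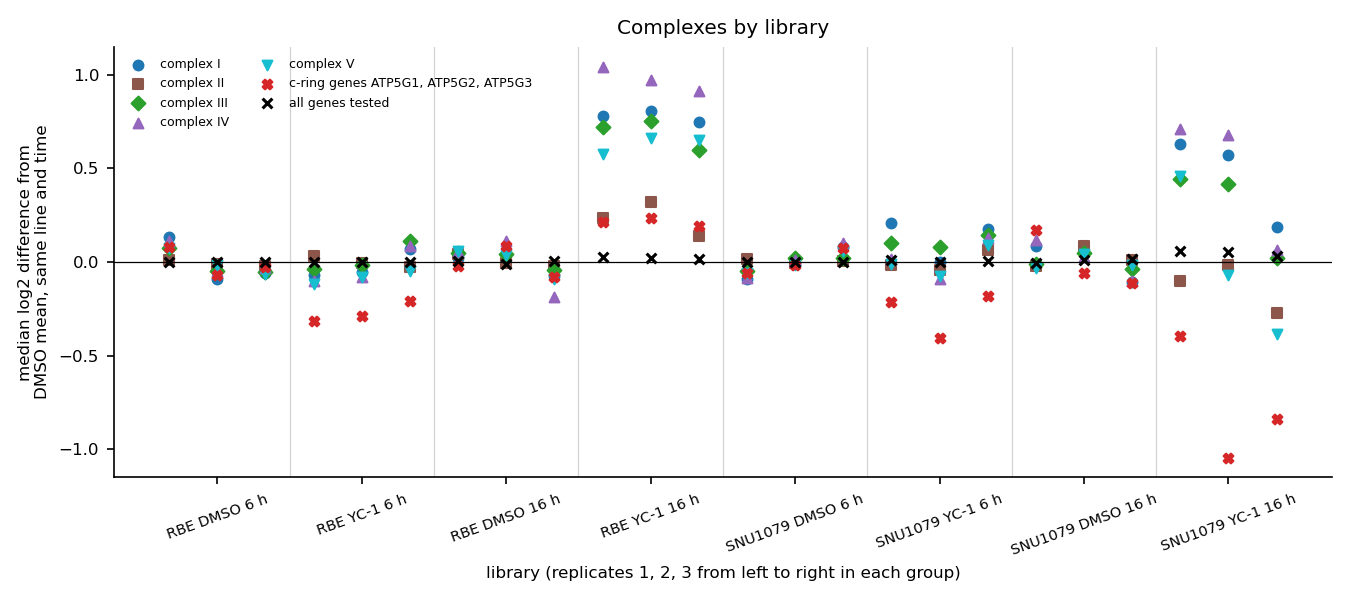
Median log2 difference of each complex from the mean of the DMSO libraries of the same line and time (vertical axis) in each of the 24 libraries (horizontal axis), with the c-ring genes and all genes tested shown apart. With YC-1 at 16 h as deposited, complex IV lies at 0.92 to 1.04 in RBE and at 0.07 to 0.71 in SNU1079, and the c-ring genes lie at 0.19 to 0.24 in RBE and at -0.39 to -1.04 in SNU1079.

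Without YC-1 the lines differed in these genes about as often as in all genes, as deposited. The median log2 difference of SNU1079 from RBE was -0.056 for the members and -0.053 for all genes. In DMSO, 21 members were higher and 28 lower in SNU1079 than in RBE, where 32.1% and 35.0% of all genes were (11 and 38 under ribosomal protein scaling). NDUFS7 was the most different upwards (1.66 ± 0.31, log2 difference ± SE) and NDUFA12 downwards (-1.47 ± 0.11). Levels per kilobase used the longest annotated protein-coding transcript, which may not be the form expressed (1839 bases for ATP5B and 10212 for ATP5S). On that scale ATP5B had the highest level in both lines (14950 in RBE and 6652 in SNU1079) and ATP5S, the coupling factor B, the lowest (13.0 and 13.5). Time in DMSO made no member pass by limma, where 0.00560% of all genes were higher and 0.0392% lower in RBE, and 3.82% and 4.75% in SNU1079. At an unadjusted p under 0.05, 2 were lower in RBE and 5 higher in SNU1079, and other fits gave up to 1 and up to 13. The log2 difference of DMSO at 16 h from 6 h was above 0 for 8 of 75 members in RBE and 58 in SNU1079. Its median over members was -0.12 and 0.11, and over all genes 0.003 and 0. For UQCRQ it was -0.47 and 0.29, neither called. DMSO libraries also enter the differences of YC-1 effects between times and lines, and their part in these was not tested.

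The genes that assemble the chain included higher and lower ones at 16 h, when 27.3% of all genes rose and 26.6% fell in RBE, and 28.7% and 25.8% in SNU1079. Of 13 complex I assembly factors, RBE had 6 higher and 2 lower and SNU1079 had 4 and 3, with the membrane-arm factor TIMMDC1 highest in both (1.10 and 0.99). The lowest called were NUBPL, an iron-sulfur carrier, in RBE (-0.80; -0.14 and not called in SNU1079), and NDUFAF5 in SNU1079 (-0.74), which also fell in RBE (-0.62; -0.43 and not called without YC-1 replicate 3). Of 24 complex IV assembly factors, RBE had 10 higher and 5 lower and SNU1079 had 7 and 8. COX10, which makes the heme A precursor, fell in both lines by 1.88 and 1.61 on the log2 scale, and stood in RBE at 430, 407 and 469 with DMSO and at 106, 113 and 134 with YC-1. SURF1, which helps to insert heme into complex IV, rose in both (1.31 and 1.18). Both held without overlap in either line. The list for complex III (4 of 6 rose in RBE and 3 in SNU1079) and that for complex V (2 of 3 in each) had none that fell. BCS1L, which inserts the Rieske protein, rose in both lines (0.87, 0.037 and not called under ribosomal protein scaling, in RBE and 0.83 in SNU1079). UQCC2 rose by 0.95 and 0.49, but did not pass under ribosomal protein scaling in either line (0.11 and 0.012). TTC19 rose in RBE (0.50) and did not pass under the other 3 scalings (-0.34 to 0.31).

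Of the complex V factors, ATPAF2 rose in both lines (0.57 and 1.06), though in RBE under none of the other 3 scalings (-0.27 to 0.38) and not without YC-1 replicate 1 (0.47) or 3 (0.50). TMEM70 rose in RBE (0.73) and did not pass under equal sums (0.41) or ribosomal protein scaling (-0.10). ATPAF1 rose in SNU1079 (1.55) from a low level of 2.96, 22.6 and 13.4 with DMSO to 30.6, 30.4 and 32.9 with YC-1, and did not pass under ribosomal protein scaling (1.09), without DMSO 16 h replicate 1 (0.81) or without the libraries that stood apart (0.83).

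The 4 complex II factors had 1 higher and 1 lower member in each line. SDHAF4, which acts on SDHA bearing its flavin, stood at 144, 161 and 134 with DMSO and at 749, 714 and 681 with YC-1 in RBE, and SNU1079 libraries stood at 79.8, 81.6 and 73.9 with DMSO and at 264, 287 and 242 with YC-1. It rose in both lines without overlap (2.28 ± 0.13 and 1.74 ± 0.13, limma adjusted p = 1.77e-11 and 1.1e-09) and already did at 6 h (1.35 and 1.90), while SDHA itself did not rise. SDHAF2, which inserts the flavin, had log2 fold changes of -0.87 in RBE and -0.82 in SNU1079, and fell in both.

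Among 20 genes for electron carriers and ubiquinone synthesis, RBE at 16 h had 12 higher and 3 lower, and SNU1079 had 9 and 3, against the shares of all genes just given. COQ10A, which binds ubiquinone, rose in both lines (1.93 ± 0.17 and 0.79 ± 0.17, limma adjusted p = 5.86e-09 and 0.000497), though in SNU1079 not under ribosomal protein scaling (0.32). It was the highest called in RBE, where it stood at 209, 179 and 158 with DMSO and at 699, 688 and 694 with YC-1 at 16 h. The enzyme that makes the ubiquinone tail has 2 subunits, PDSS1 and PDSS2. PDSS2 fell in both lines (-0.99 and -0.69), and PDSS1 fell in SNU1079 (-0.77) and did not pass in RBE (-0.14). Cytochrome c (CYCS) rose at both times in both lines, by 1.24 in RBE (0.40 and not called under ribosomal protein scaling) and 1.14 in SNU1079 at 16 h on the log2 scale. CYC1, the complex III subunit cytochrome c1 outside the symbol rule, rose by 0.97 and 0.67, but not under ribosomal protein scaling (0.13 and 0.19). NDUFA4L2, the hypoxia-linked relative of NDUFA4, stood in SNU1079 at 16 h at 1.34, 1.19 and 0 with DMSO and at 3.91, 22.2 and 6.13 with YC-1, levels too low for a fold. COX7A2L, a relative of COX7A2 that joins complexes III and IV, rose by 0.75 and 0.43, but did not pass under ribosomal protein scaling (-0.082 and -0.043).

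Of 20 known regulators of mitochondrial gene expression, RBE at 16 h had 5 higher and 9 lower, where 27.3% and 26.6% of all genes were, and SNU1079 had 7 and 10, where 28.7% and 25.8% were. The factor NRF1 stood in RBE at 16 h at 370, 374 and 395 with DMSO and at 68.8, 92.5 and 116 with YC-1, and in SNU1079 at 398, 224 and 300 with DMSO and at 131, 90.9 and 133 with YC-1. NRF1 fell without overlap in both lines (-2.06 ± 0.22 and -1.35 ± 0.22, limma adjusted p = 1.15e-07 and 2.94e-05), and already at 6 h (-0.97 and -0.89). The coactivator PPARGC1B stood in RBE at 16 h at 257, 260 and 248 with DMSO and at 9.01, 13.0 and 12.2 with YC-1, and fell at both times in both lines (-4.38 in RBE and -3.59 in SNU1079 at 16 h). PPARGC1A, the coactivator PGC-1 alpha, fell in RBE (-2.97) and in SNU1079 (-1.46), where it did not pass without DMSO 16 h replicate 1 (-1.04), YC-1 16 h replicate 1 (-1.35) or 3 (-1.32) or the libraries that stood apart (-1.3). The nuclear receptor ESRRA rose in SNU1079 (1.31) and in RBE (0.70), where it passed under none of the other 3 scalings (-0.13 to 0.51) and not without DMSO replicate 1 (0.61), DMSO replicate 3 (0.64) or YC-1 replicate 3 (0.58). TEFM, the mitochondrial transcription elongation factor, fell by 1.82 and 2.66 on the log2 scale at 16 h. TFAM, which packages mitochondrial DNA and starts its transcription, rose (1.15 ± 0.20 and 0.97 ± 0.20), though not under ribosomal protein scaling (0.32 and 0.49). The calls for NRF1, PPARGC1B and TEFM were kept in each alternative run. Of 13 mitochondrially encoded subunits, 1 (MT-CO1) was called higher in each line at 16 h, at 1.48 ± 0.46 in RBE and 1.17 ± 0.46 in SNU1079 (limma adjusted p = 0.00985 and 0.0369). It did not pass under ribosomal protein scaling in RBE (0.65), and in SNU1079 it passed under none of the other 3 scalings (0.70 to 0.93) and not when any single library of those groups other than YC-1 replicate 2 was left out (0.54 to 1.28). The log2 fold changes of the 13 had a median of 1.09 in RBE (0.87 to 1.50, all above 0) and 0.10 in SNU1079 (-0.83 to 1.17, 8 above 0). Their summed count in RBE at 16 h was 1276430 to 1394680 with DMSO and 2908440 to 3352410 with YC-1, without overlap. In SNU1079 at 16 h it was 790667 to 1150050 with DMSO. With YC-1 it was 2911940, 235843 and 3866840 there, so replicate 2 went against the other libraries and the few calls do not show little change.

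**Figure D5:**
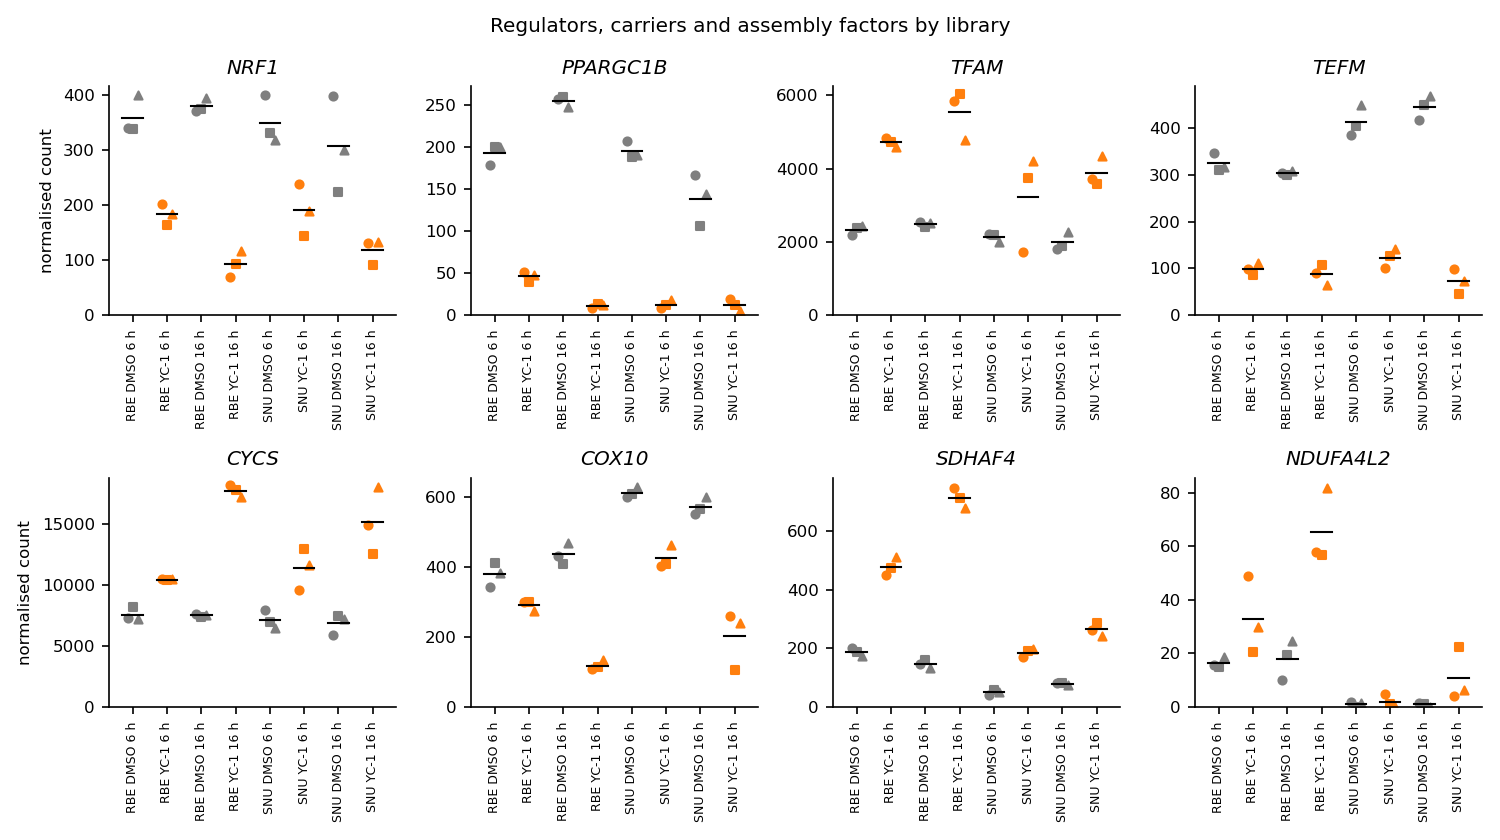
Normalised count (vertical axis) of 8 genes of the wider pathway in each of the 24 libraries by group (horizontal axis), with replicates 1, 2 and 3 as circles, squares and triangles, grey for DMSO, orange for YC-1 and a short line for the group mean. NRF1 in RBE with YC-1 at 16 h lies at 68.8 to 116, below the DMSO libraries at 370 to 395, and TFAM lies above them as deposited but was not called under ribosomal protein scaling.

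The members are short genes. Their median transcript length was 1263 bases, against 3382 for all genes tested with an annotation, and their median span on the genome was 12629 against 26277 bases. Transcript lengths here are those of the longest annotated protein-coding transcript of each gene, which may not be the form expressed. Across the 75 members, the Spearman correlation of span with the fold change was -0.45 in RBE and -0.34 in SNU1079 at 16 h, and across all genes it was -0.41 and -0.31. For transcript length it was -0.31 and -0.13 across members, and -0.43 and -0.29 across all genes. The share of G and C letters in the transcript gave 0.349 and 0.405 across members, and 0.286 and 0.333 across all genes. Genes of a library share depth and composition, so these are descriptions. The 25 members with the shortest transcripts had a median of 0.89 (RBE, 16 h), where all genes in that length window had 0.85. The 25 in the middle had 0.88, and all genes in their window 0.58. The 25 longest had 0.47, and all genes in their window -0.14. For SNU1079 the shortest had 0.42 (all genes 0.46), the middle 0.32 (all genes 0.39) and the longest 0.24 (all genes 0.00).

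Promoters were found for 61 members and compared with 15843 RefSeq promoters of the same length, with motifs searched on both strands. The NRF1 motif was present in 15 member promoters (24.6%, against 8.58% of all), the ETS motif in 19 (31.1%, against 14.2%), the YY1 motif AAGATGGC in 11 (18.0%, against 3.91%) and GGGCGG, the SP1 motif, in 37 (60.7%, against 58.5%). The cyclic AMP response element was present in 5 (8.20%, against 2.59%). Motifs that overlapped were each counted. The 15 members with the NRF1 motif, as in the SDHA promoter printed above, had a median of 0.60 (RBE, 16 h) and the 46 without it 0.87. The 19 with the ETS motif, as in UQCRQ and NDUFA13, had a median of 0.94 and the 42 without it 0.70. The medians with and without the SP1 motif were 0.85 and 0.62, and with and without the YY1 motif 0.79 and 0.81. In SNU1079 at 16 h the medians with and without a motif were 0.24 and 0.42 for NRF1, 0.47 and 0.28 for ETS, 0.58 and 0.15 for SP1, and 0.60 and 0.32 for YY1. The 5 members with the cyclic AMP response element, ATP5G1 among them, had a median of 0.46 there and the 56 without it 0.32. For RBE at 16 h these medians were 0.674 and 0.815. A match describes letters in this window and does not show that a factor binds there.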

How the data were processed

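For 24 libraries, made with a stranded mRNA kit per the labels' protocols, the authors deposited DESeq2-normalised counts, a signal whose total is not fixed. STAR, DESeq2 and hg38 were used by the authors, per the submitters' processing notes, and which tool and strand setting counted the reads is not given in the sources used here. The low values were not multiples of 1 step (7.49% to 51.3% lay within 0.02 of a whole multiple), so raw reads could not be recovered and the depth and its intervals are unknown. Rows with no symbol held 1.35% to 1.86% of the signal. Times came from the titles and design text, because a separate time label contradicts them. That label gives 16 h for every DMSO library and 6 h for every YC-1 library. Under it, time and treatment could not be told apart. A fit with times pooled was an alternative, and it does not address this.

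Values were fitted as log2(normalised count + 1) with limma 3.58.1 (R 4.3.3, intensity trend), 1 mean per group over 24 libraries and 16 residual degrees of freedom. The spread of a gene was shared by both lines, so its SE is the same in each. SNU1079 libraries agreed less within groups than RBE libraries, so p-values may be too small in SNU1079 and too large in RBE. Genes needed at least 10 in at least 3 libraries (17860 genes), and p-values are two-sided and Benjamini-Hochberg adjusted over these, with a threshold of 0.05. Fold changes understate changes of low genes. The members and lists were chosen with earlier results of these data known. Members to be described were chosen as the highest and lowest per complex and comparison, the 5 highest and lowest of all members, the 3 highest and lowest for each difference of effects, the SDH genes, NDUFA4, COX4I1, UQCRC1, UQCRC2 and UQCRFS1. From each other list they were the highest and lowest called genes and a few regulators. Values are printed for most of these, and the others are in the counts and ranges. ATP5B, ATP5A1, ATP5C1, TEFM, SDHAF4 at 6 h and the members called the same way under every scaling were singled out after their values were seen. The result of 1 member is not reported here. Comparisons that share DMSO or YC-1 libraries are not independent. Coordinates are from GENCODE 29 on GRCh38 by Ensembl identifier, and promoters from RefSeq on GRCh38.p14 by symbol. Alternatives changed the pseudocount (5), the filter, 3 scalings (one to 78 ribosomal protein genes), library weights, the 12 libraries of 1 line, the replicate number as a block, a minimum fold change of 0.5 on the log2 scale, and single libraries. Removal of 3 libraries together was chosen after the data were seen. On simulated data for RBE at 6 h over 17860 genes, 12% of 50 genes with a log2 change of 0.5, 32% with 1 and 78% with 2 were recovered, and 11.1% of 90 calls were false. The changed genes were drawn at random from all genes tested, low ones included, and no other gene was changed. In the data 2069 genes were called higher and 2221 lower there, so the adjustment was stricter in the simulation. These recovery rates are therefore not those of the members. The plots come from matplotlib 3.10.9 (Python 3.11.15).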

Additional observations from a re-analysis of the deposited data

Results flagged for a closer look

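The YC-1 effect differed between times or lines by a test of the difference itself in the following cases. In RBE it differed between 16 h and 6 h for 54 members, all higher at 16 h, where 8.80% of all genes were higher and 9.43% lower. The highest were UQCRQ (1.54), NDUFA4 (1.50) and UQCR11 (1.38) on the log2 scale. In SNU1079 it differed for 8 members, 7 higher and 1 lower, where 8.47% of all genes were higher and 8.53% lower, with NDUFA13 (0.73), NDUFB10 (0.61) and ATP5E (0.60) higher at 16 h and ATP5G3 lower (-0.50). The 7 higher members were near the share of all genes, so this count does not set the members apart. Under the other 3 scalings 8, 5 and 6 members passed in SNU1079, all lower. Between the lines at 16 h it differed for 21 members, where 6.43% of all genes were lower and 8.17% higher, with COX5A (-1.21), ATP5G2 (-1.09), UQCRQ (-1.08), ATP5G1 (-1.03) and ATP5G3 (-0.97) all lower in SNU1079 than in RBE. Their cause was not tested.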

How the results depend on the processing

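Counts of members are given here under each setting that moved them by over 1.5 times, and the cause of these moves was not tested. Under equal sums, RBE at 16 h had 41 higher and 5 lower, SNU1079 at 16 h 9 and 22, and the difference between times in RBE 19. With equal sums without mitochondrial transcripts, 2 were lower in RBE at 16 h, 22 higher and 16 lower in SNU1079 at 16 h, and 30 and 5 passed for the differences between times in RBE and SNU1079. Scaling to ribosomal protein genes gave 4 lower in RBE at 6 h, 11 higher and 22 lower in RBE at 16 h, 1 and 9 in SNU1079 at 6 h, 8 and 30 in SNU1079 at 16 h, 11 for times in RBE and 7 for lines at 16 h. Library weights gave 10 higher and 8 lower in RBE at 6 h, 1 lower in RBE at 16 h, 20 and 9 in SNU1079 at 6 h, 32 for times in SNU1079, 4 for lines at 6 h, and 1 and 13 for time in DMSO in RBE and SNU1079. With the 12 libraries of a line, there were 6 higher and 11 lower in RBE at 6 h, 2 lower in RBE at 16 h, 3 and 2 in SNU1079 at 6 h, and 1 for times in SNU1079. With times pooled, 35 were higher and 1 lower in RBE, and 16 and 7 in SNU1079. A minimum fold change of 0.5 left 1 lower in RBE at 6 h, 0 higher in SNU1079 at 6 h, 5 lower in SNU1079 at 16 h, 3 for times in SNU1079 and 26 between the lines in DMSO (49 without it). With no filter, 3 passed for times in SNU1079. Without the 3 libraries that stood apart, there were 3 higher and 7 lower in RBE at 6 h, 1 lower in RBE at 16 h, 11 higher in SNU1079 at 6 h, 22 for times in SNU1079, 2 for lines at 6 h and 8 for time in DMSO in SNU1079.

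Leaving out single libraries gave 0 to 2 lower in RBE at 6 h, 0 to 1 lower in RBE at 16 h, 3 to 9 higher in SNU1079 at 6 h, 4 to 21 for times in SNU1079 and 8 to 34 for lines at 16 h. For RBE at 6 h there was 1 lower without DMSO replicate 1 or YC-1 replicate 2 and 0 without YC-1 replicate 1. For RBE at 16 h, 1 was lower without DMSO replicate 1, and for SNU1079 at 6 h, 3 were higher without DMSO replicate 1. The replicate block gave 5 for times in SNU1079 and moved no other count of members by over 1.5 times. Same-numbered libraries showed no pairing in RBE (correlations of -0.124 to 0.085 over 18 pairs, 0 over 0.1). In SNU1079 they ran from -0.206 to 0.340 over 18 pairs, of which 4 were over 0.1. There DMSO at 16 h and YC-1 at 6 h correlated at 0.340, 0.094 and 0.205 in replicates 1, 2 and 3. Libraries of different numbers were not compared, so pairing in SNU1079 was not settled.

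Scaling to ribosomal protein genes put the median of all genes in RBE at 16 h at -0.75, that of the members at -0.05, and 41 of the 75 members below 0. Of the genes named in the text, it reversed the RBE values at 16 h of SDHB (-0.16), SDHD (-0.23), ATP5G2 (-0.33), UQCRC1 (-0.059), UQCRC2 (-0.42), UQCRFS1 (-0.27), ATP5B (-0.014), COX7B (-0.45), TTC19 (-0.34), TMEM70 (-0.10), ATPAF2 (-0.27), COX7A2L (-0.082), ESRRA (-0.13) and IDH2 (-0.22), and that of COX7A2L in SNU1079 (-0.043). UQCRC2 in SNU1079 at 16 h was reversed by it (-0.15) and by equal sums (-0.042).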

Other observations

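The tricarboxylic acid cycle supplies the chain with NADH and succinate. Of its 17 genes, 9 rose and 3 fell in RBE at 16 h, where 27.3% and 26.6% of all genes did, and 6 rose and 3 fell in SNU1079, where 28.7% and 25.8% did. The matrix malate dehydrogenase MDH2 (1.05 in RBE and 1.24 in SNU1079, log2 fold change) and IDH3G (1.06 and 1.11), a subunit of the NAD-dependent isocitrate dehydrogenase, rose in both lines as deposited, but neither passed in RBE under ribosomal protein scaling (0.21 and 0.23). OGDH, the first enzyme of the 2-oxoglutarate dehydrogenase complex, fell in both (-1.13 and -0.46), as did DLAT of the pyruvate dehydrogenase complex (-0.73 and -1.11). IDH2, the mitochondrial relative of IDH1, rose in RBE (0.61, limma adjusted p = 0.000139; -0.22 under ribosomal protein scaling) and did not pass in SNU1079 (0.19, adjusted p = 0.168).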
